A study of Mus musculus with 4 samples.

Results

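Smooth muscle contractile genes were followed in mouse small intestine and colon as a readout of the muscle layer that each tissue sample carried. The 10 genes were Acta2, Actg2, Myh11, Tagln, Cnn1, Des, Smtn, Lmod1, Mylk and Synm, taken by their symbols from a fixed list, and they are 10 of 20787 condensed genes, a condensed gene being the set of reference exons that share one gene. The list itself was drawn up with earlier results of these data known. All 10 had reads in all 4 libraries, and no filter on low values removed any of them.

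The 4 libraries came from frozen whole tissue of C57BL/6 mice, which the methods of the study give as 9 to 10 weeks old. One small intestine and one colon library were made from polyadenylated RNA by SMART cDNA synthesis, in which full-length double-stranded cDNA is fragmented, and are called cDNA libraries here. The other small intestine and colon libraries were made with the Whole Transcriptome Analysis Kit, in which RNA itself is fragmented and strand is kept. Their labels give ribosomal RNA-depleted RNA as input, whereas the study's methods describe polyadenylated RNA for that protocol. Their read totals are also not those that the study gives for its RNA-fragmented libraries, so those methods may not describe them and the input is stated as labelled. The methods name jejunum and distal colon as the sites sampled, and the study describes both tissues as taken from the same animals. How many mice entered a library is not given in the sources used here, and neither is whether the protocols used the same mice. Each tissue and protocol has 1 library, so there is no replicate error within a protocol and no test between tissues within one. Except for those of the fit over all 4 libraries, intervals given below are exact 95% intervals that cover counting error only. The test of tissue in that fit takes as its error the spread between protocols, drawn mostly from all genes together.

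Smooth muscle of the gut wall contracts when calcium and calmodulin activate myosin light chain kinase, which phosphorylates the regulatory light chain so that smooth muscle myosin can pull on actin filaments. The alpha and gamma smooth muscle actins form these filaments, and calponin, transgelin and leiomodin bind or build them. Desmin and synemin make the intermediate filament network that ties the filaments to dense bodies and to the cell membrane. Many of these genes are controlled by serum response factor with its partner myocardin, and their transcripts are among the standard markers of the muscularis externa and of vascular smooth muscle.

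The cDNA libraries held 22484041 uniquely placed reads for small intestine and 24798934 for colon, and the rRNA-depleted libraries held 2035386 and 3478387. Uniquely placed reads were 29.0% and 29.8% of all reads in the cDNA libraries and 5.59% and 9.28% in the rRNA-depleted libraries, so counting intervals are widest for the small intestine rRNA-depleted library. Levels are given as RPKM, reads scaled to a kilobase of exon and to 1000000 uniquely placed reads. A gene was called higher in a tissue when its RPKM was at least 3 times that of the other tissue after 1 RPKM had been added to the divisor, the rule used in the study. A gene under 3 RPKM in both tissues therefore could not pass, whatever its ratio. By that rule 3.21% of 16463 genes tested were at least 3-fold higher in colon in the cDNA libraries, and 6.60% of 15067 in the rRNA-depleted libraries. The corresponding shares higher in small intestine were 2.73% and 3.71%. Over the genes with at least 20 reads, the log2 ratio of colon over small intestine had a median of 0.40 in both protocols.

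Most of the contractile genes were higher in colon. In the cDNA libraries 6 of 10 (Acta2, Actg2, Myh11, Tagln, Cnn1 and Smtn) passed the 3-fold rule, against the 3.21% of all genes. In the rRNA-depleted libraries 5 of 10 (Acta2, Actg2, Tagln, Cnn1 and Des) passed it, against 6.60%. The 2 sets shared 4 genes, and Lmod1, Mylk and Synm passed in neither. No contractile gene passed the rule for small intestine. When each start position was counted once instead of each read, only Smtn passed in the cDNA libraries and 3 genes, Actg2, Tagln and Cnn1, passed in the rRNA-depleted ones. How many of all genes passed by start points was not computed, so these counts cannot be set against all genes. Of the genes that no longer passed by cDNA, the share of possible start positions in use in colon was 93.5% for Tagln, 86.8% for Actg2, 68.2% for Acta2, 45.4% for Cnn1 and 31.9% for Myh11. Of those that no longer passed in the rRNA-depleted libraries, it was 27% for Acta2 and 23% for Des in colon. The part of this share in the lost calls was not tested. By start points the cDNA log2 ratios of Acta2, Actg2, Tagln, Cnn1 and Myh11 were 0.36, 0.56, 0.51, 1.35 and 1.36. Those in the rRNA-depleted libraries were 1.35, 1.90, 1.85, 2.42 and 0.60 for the same genes, 1.34 for Des and 0.26 for Mylk. For all of these the ratio was more than 1.5 times lower than the ratio of reads given below.

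Taken over both protocols, 7 of the 10 genes rose in colon. The fit was limma on log2(RPKM + 1) with tissue and protocol as terms, over 14839 genes tested in both protocols, and 7.68% of these were called higher in colon and 3.90% higher in small intestine at an adjusted p under 0.05. Of all these calls 66.3% were thus on the colon side, against 56.4% with median-of-ratios and 55.2% with upper quartile scaling. Cnn1, Tagln and Actg2 rose by 3.23 (SE 0.45), 3.01 (SE 0.41) and 2.97 (SE 0.44) on that log2 scale, with limma adjusted p of 0.000215, 0.000159 and 0.000356. Acta2, Des, Smtn and Myh11 rose by 2.34, 2.07, 1.61 and 1.53, with limma adjusted p of 0.00122, 0.00263, 0.0201 and 0.0139. Lmod1, Synm and Mylk did not pass, at 1.02 (0.10 to 1.94), 0.84 (-0.08 to 1.76) and 0.32 (-0.50 to 1.14) and limma adjusted p of 0.149, 0.241 and 0.642. All but Mylk were higher in colon in both protocols. Among all genes with at least 20 reads, 9422 of 14206 had a log2 ratio above 0 by cDNA. In the rRNA-depleted libraries 7746 of 11958 did, so a ratio above 0 was common. With 4 libraries the fit has 1 residual degree of freedom, which holds the difference of the tissue ratio between protocols and, since libraries were not replicated within a protocol, no separate spread between animals. The prior drawn from all genes had a median of 13.1 degrees of freedom. The SE and p of a gene therefore rest mostly on that prior and not on its own spread between protocols. Smtn no longer passed with median-of-ratios scaling.

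Together the 10 genes took 0.0918% of uniquely placed reads in the small intestine cDNA library (interval 0.0906 to 0.0931) and 0.225% in the colon cDNA library (0.223 to 0.227). The shares were 0.104% (0.0992 to 0.108) and 0.474% (0.467 to 0.482) in the rRNA-depleted small intestine and colon libraries. The summed reads were thus 2.45 times higher in colon by cDNA, a log2 ratio of 1.29 (1.27 to 1.32), and 4.58 times higher in the rRNA-depleted libraries, a log2 ratio of 2.20 (2.13 to 2.26). Counted by start points, these log2 ratios were 0.69 and 0.95. In bulk tissue a larger number of muscle cells and more of these transcripts per muscle cell cannot be told apart. Mylk alone held 46.4% of the summed reads in small intestine by cDNA and 16.1% in colon. Without Mylk the log2 ratio of the sum was 1.94 by cDNA and 2.69 in the rRNA-depleted libraries.

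**Figure D1:**
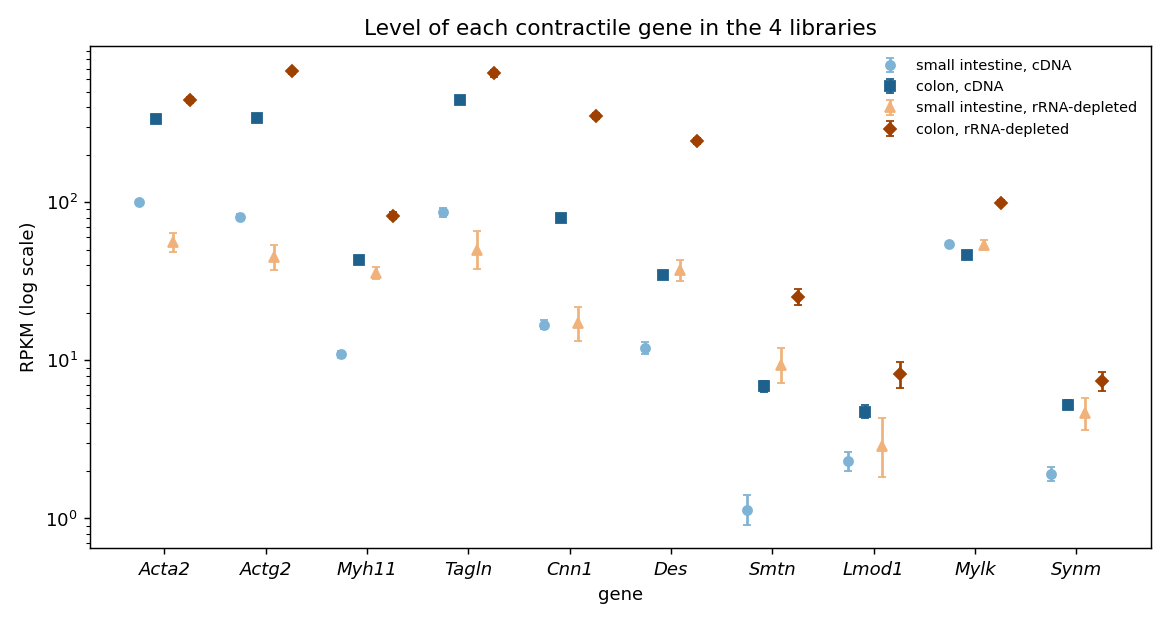
RPKM on a log axis for each of the 10 contractile genes, with 1 point per library and bars for the exact 95% Poisson interval. The colon points lie above the small intestine points of the same protocol for every gene except Mylk in the cDNA libraries, where colon was 46.4 and small intestine 54.6 RPKM.

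The smooth muscle actins were among the most abundant of the 10 genes in every library. Acta2, alpha smooth muscle actin, lies on the minus strand of chromosome 19 (mm9, 34315581 to 34329826) in 9 exon blocks. It stood at 101 RPKM in the small intestine cDNA library (4032 reads), at 335 in colon cDNA (14795 reads), at 56.0 in small intestine rRNA-depleted (203 reads) and at 444 in colon rRNA-depleted (2747 reads). Both colon libraries were above both small intestine libraries, by 3.33 times within the cDNA protocol and by 7.92 times within the rRNA-depleted protocol. The log2 ratios were 1.73 (1.68 to 1.78) and 2.99 (2.78 to 3.20).

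Actg2, gamma smooth muscle actin, is the actin typical of visceral muscle and lies on the minus strand of chromosome 6 (83462903 to 83486245). Its levels were 80.6 RPKM in small intestine cDNA (2383 reads), 341 in colon cDNA (11112 reads), 45.2 in small intestine rRNA-depleted (121 reads) and 674 in colon rRNA-depleted (3081 reads). The difference between tissues was larger than for Acta2 in each protocol, at log2 ratios of 2.08 (2.02 to 2.14) and 3.90 (3.63 to 4.17), whose intervals do not overlap those of Acta2. Counted by start points, the intervals did overlap in both protocols. They were 0.45 to 0.67 for Actg2 and 0.27 to 0.46 for Acta2 by cDNA, and 1.52 to 2.30 and 1.03 to 1.69 in the rRNA-depleted libraries. In small intestine Acta2 was the higher of the pair by cDNA, and the intervals overlapped in the rRNA-depleted library (48.6 to 64.3 for Acta2 and 37.5 to 54 for Actg2). In colon the intervals overlapped by cDNA (330 to 341 and 334 to 347 RPKM), and Actg2 was the higher in the rRNA-depleted library.

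Actins are so alike that reads can fail to separate them. Of the 1474 windows of 35 bases inside Acta2 exon blocks, 1417 (96.1%) had no other placement in the exon reference within 3 color mismatches, and of the 1009 windows of Actg2, 937 (92.9%) had none. Acta2 shared 33 windows with Actg1 and 30 with Actb, and Actg2 shared 50 with the cardiac actin Actc1 and 18 with the skeletal actin Acta1. Actb, the cytoplasmic beta actin, stood at 1408 and 667 RPKM in small intestine and colon by cDNA and at 982 and 953 in the rRNA-depleted libraries. Acta1 held 303 and 334 reads by cDNA and 9 and 9 in the rRNA-depleted libraries. Actc1 held 580 and 869 reads by cDNA and 51 and 270 in the rRNA-depleted libraries, with log2 ratios of 0.44 and 1.63. It was thus higher in colon in both protocols, by cDNA near the median of 0.40 over all genes. Actg1, the cytoplasmic gamma actin, had log2 ratios of 0.33 and 0.05.

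Tagln, transgelin (SM22 alpha), is an actin-bundling protein and one of the earliest markers of smooth muscle. It stood at 86.4 RPKM in small intestine cDNA (1045 reads), at 446 in colon cDNA (5956 reads), at 50.2 in small intestine rRNA-depleted (55 reads) and at 652 in colon rRNA-depleted (1220 reads). Colon was 5.17 times higher by cDNA and 13 times higher in the rRNA-depleted libraries, with log2 ratios of 2.37 (2.27 to 2.47) and 3.70 (3.31 to 4.12). These values rest on 538 bases in 4 exon blocks (chromosome 9, 45738916 to 45743981, minus strand).

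The last annotated exon of Tagln, 888 bases at 45737711 to 45738598, is not among those blocks. The reference merges it into a longer block (45736594 to 45738598), and the gene naming used here gave that block to the opposite-strand gene Pcsk7. In the rRNA-depleted libraries, which keep strand, reads on the Tagln strand of this exon numbered 83 in small intestine and 1259 in colon, and reads on the Pcsk7 strand 5 and 60. In the rest of the same block the order was turned round, with 0 and 2 reads on the Tagln strand and 72 and 376 on the Pcsk7 strand. Tagln-strand reads in the exon gave a log2 ratio of 3.15 (2.83 to 3.49), and the exon added to the other blocks gave 3.39 (3.15 to 3.65). In the cDNA libraries, which do not keep strand, both strands of the exon together had 1731 small intestine and 11675 colon reads, and the reads cannot be assigned to either gene. Of the related transgelins, Tagln2 had log2 ratios of 0.94 and 0.62, and Tagln3 held 25 and 177 reads by cDNA, where it passed the 3-fold rule at a log2 ratio of 2.68, and 0 and 10 in the rRNA-depleted libraries.

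Cnn1, calponin 1, binds actin and slows the myosin ATPase. It lies on the plus strand of chromosome 9 (21903697 to 21913665). Its levels were 16.8 RPKM in small intestine cDNA (752 reads), 79.9 in colon cDNA (3938 reads), 17.1 in small intestine rRNA-depleted (69 reads) and 350 in colon rRNA-depleted (2419 reads). The small intestine libraries of both protocols had overlapping intervals, 15.7 to 18.1 and 13.3 to 21.6 RPKM, whereas the colon libraries differed by a wide margin. The ratio of 20.5 in the rRNA-depleted libraries (log2 4.36, 4.01 to 4.73) had an interval that overlapped those of Actg2 and Tagln, and the cDNA ratio was 4.75 (log2 2.25, 2.13 to 2.36). Over the last 1000 exonic bases the rRNA-depleted log2 ratio of Cnn1 was 3.49, against 3.90 for Actg2 and 3.70 for Tagln. A single start position in block 4 held 433 of the 2370 exon reads of the colon rRNA-depleted library. The non-muscle calponins Cnn2 and Cnn3 stood at log2 ratios of 0.07 and 0.06 by cDNA and 1.07 and 1.34 in the rRNA-depleted libraries.

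**Figure D2:**
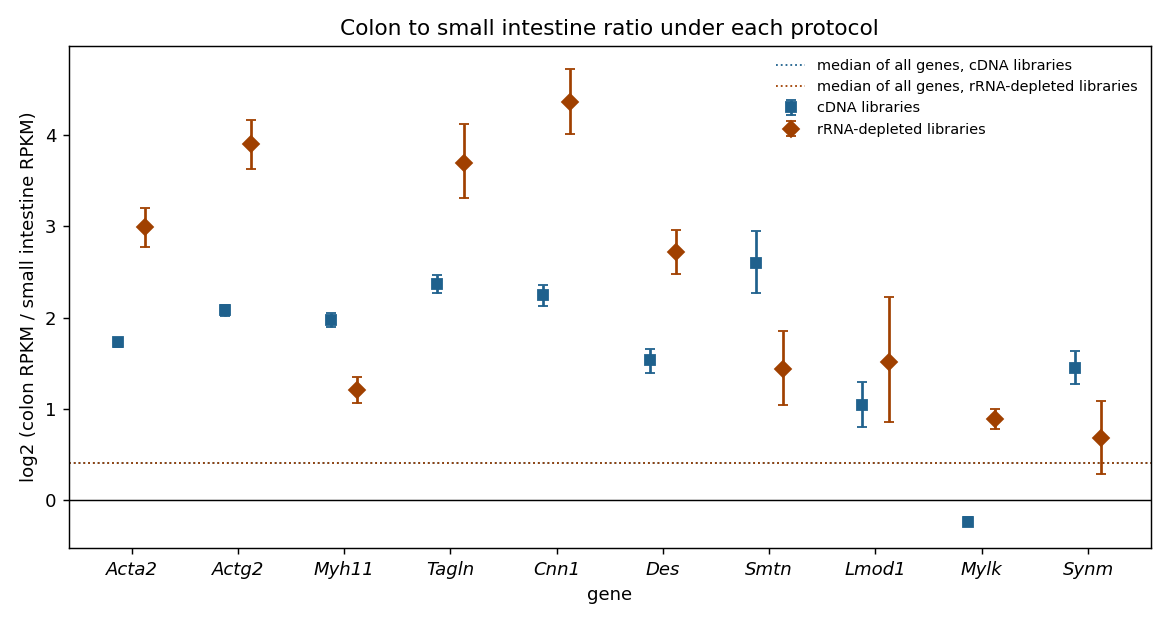
Log2 ratio of colon to small intestine RPKM for each contractile gene, squares for the cDNA libraries and diamonds for the rRNA-depleted libraries, with exact 95% intervals for counting error. Dotted lines mark the median of all genes, 0.40 in both protocols, and Mylk in the cDNA libraries, at -0.24, is the only point below 0.

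Myh11 encodes the smooth muscle myosin heavy chain, the motor of the contractile apparatus, and spans 42 exon blocks on the minus strand of chromosome 16 (14194620 to 14291501). It stood at 11.0 RPKM in small intestine cDNA (1636 reads), at 43.1 in colon cDNA (7089 reads), at 35.7 in small intestine rRNA-depleted (482 reads) and at 82.4 in colon rRNA-depleted (1902 reads). Here the protocols went the other way from the actins: the tissue ratio was 3.93 by cDNA (log2 1.97, 1.90 to 2.05) and 2.31 in the rRNA-depleted libraries (log2 1.21, 1.06 to 1.35).

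The rRNA-depleted ratio of Myh11 was not even along the transcript. With the exon bases cut into 3 equal parts, small intestine and colon had 182 and 1076 reads in the 5′ part, 102 and 176 in the middle part, and 194 and 624 in the 3′ part. The log2 ratios were 1.79 (1.56 to 2.03), 0.01 (-0.35 to 0.38) and 0.91 (0.68 to 1.15). The gene was thus higher in colon in its 5′ and 3′ parts and near equal in its middle part. Of the reads in the 3′ part, block 42 held 93 and 428. Blocks 34 and 35 of that part were lower in colon, at 48.5 against 21.3 and 103 against 44.6 RPKM in small intestine and colon. In the cDNA libraries the same parts gave 1.75, 2.0 and 1.99, with overlapping intervals. The cDNA reads were gathered at the 3′ end, where the last part held 79.4% of the exon reads in small intestine and 80.2% in colon.

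Myh11 blocks near or under the length of a read could hardly be read. Block 41 is an exon of 39 bases near the 3′ end that is left in or out to give the SM2 and SM1 tails of the heavy chain, and block 4 has 28 bases, fewer than the 35 of a read. Both are shown in the direction of the transcript, at 14198143 to 14198181 and 14256578 to 14256605 on chromosome 16 (mm9, minus strand), because their lengths set what these libraries could see:
Myh11 block 41: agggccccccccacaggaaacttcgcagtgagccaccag
Myh11 block 4: atcgtgaagaccagtccattctgtgcac
Block 41 held 5 reads in colon cDNA and 0 in the other libraries, and it offers 5 windows of read length. Block 4 offers none and held no read. Reads placed on exon-exon junctions could not replace them, since of the 136, 435, 16 and 232 junction placements on contractile genes (small intestine cDNA, colon cDNA, then the rRNA-depleted libraries in the same order) 135, 433, 16 and 229 had 2 or 3 mismatches. Isoform use was therefore not measured. Of the non-muscle heavy chains, Myh9 had log2 ratios of -0.25 and -1.24, and Myh14 went from 832 reads in small intestine to 130 in colon in the rRNA-depleted libraries, a log2 ratio of -3.45, while it stood at 0.07 by cDNA. Myh10 held 52 and 83 reads by cDNA and 12 and 35 in the rRNA-depleted libraries, at log2 ratios of 0.53 and 0.77.

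Mylk encodes myosin light chain kinase, and its gene (chromosome 16, 34785036 to 35002520, plus strand) gives rise to a long non-muscle kinase, a short smooth muscle kinase that starts further downstream, and telokin, a small protein read from the last exons. It was the exception among the contractile genes. It stood at 54.6 RPKM in small intestine cDNA (9589 reads), at 46.4 in colon cDNA (8980 reads), at 53.8 in small intestine rRNA-depleted (855 reads) and at 99.5 in colon rRNA-depleted (2703 reads). By cDNA colon was the lower, at a log2 ratio of -0.24 (-0.28 to -0.19), and in the rRNA-depleted libraries it was the higher, at 0.89 (0.78 to 1.0).

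The reads of Mylk fell into separate stretches, whose borders were set after the values of its 32 blocks had been seen. Blocks 1 to 15, at the 5′ end of the long form, held 1, 1, 0 and 3 reads over 2507 bases in small intestine cDNA, colon cDNA, small intestine rRNA-depleted and colon rRNA-depleted. Blocks 16 to 29 held 479, 281, 225 and 558 reads over 2878 bases in the same order. The last 3 blocks held 9092, 8689, 628 and 2137 reads over 2424 bases, which is 95%, 96.9%, 73.6% and 79.2% of the gene's exon reads. Most of these lay in block 32, of 2162 bases. The 5′ exons of the long form were thus at or near 0 in all 4 libraries. From block 29 to block 30 the level went from 15.8 to 77.7 RPKM in small intestine cDNA, from 6.50 to 91.2 in colon cDNA, from 39.6 to 75.6 in small intestine rRNA-depleted and from 30.1 to 186 in colon rRNA-depleted. In the small intestine rRNA-depleted library this rests on 10 and 20 reads and lies within the scatter of the blocks before it, since block 25 stood at 79.5 RPKM, and in the other libraries block 30 lay above all earlier blocks.

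The tissue ratio differed between these stretches. Over blocks 16 to 29 the log2 ratio was -0.91 (-1.13 to -0.70) by cDNA and 0.54 (0.31 to 0.77) in the rRNA-depleted libraries. The latter was not even, since block 16 alone held 53 small intestine and 220 colon reads there. A single start position held 27 and 108 of them. Over blocks 30 and 31 it was 0.25 (0.06 to 0.44) and 1.49 (1.03 to 1.97). In block 32 it was -0.23 (-0.28 to -0.19) and 0.95 (0.81 to 1.08). Blocks 16 to 29 were therefore lower in colon by cDNA and stood at a lower ratio than blocks 30 and 31 in both protocols. Telokin and the kinases share the last exons, so reads there cannot be assigned to one of them. Mylk2 and Mylk3, the skeletal and cardiac kinases, held 1 read or none in the rRNA-depleted libraries, and 1 and 19 in small intestine and 0 and 2 in colon by cDNA.

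**Figure D3:**
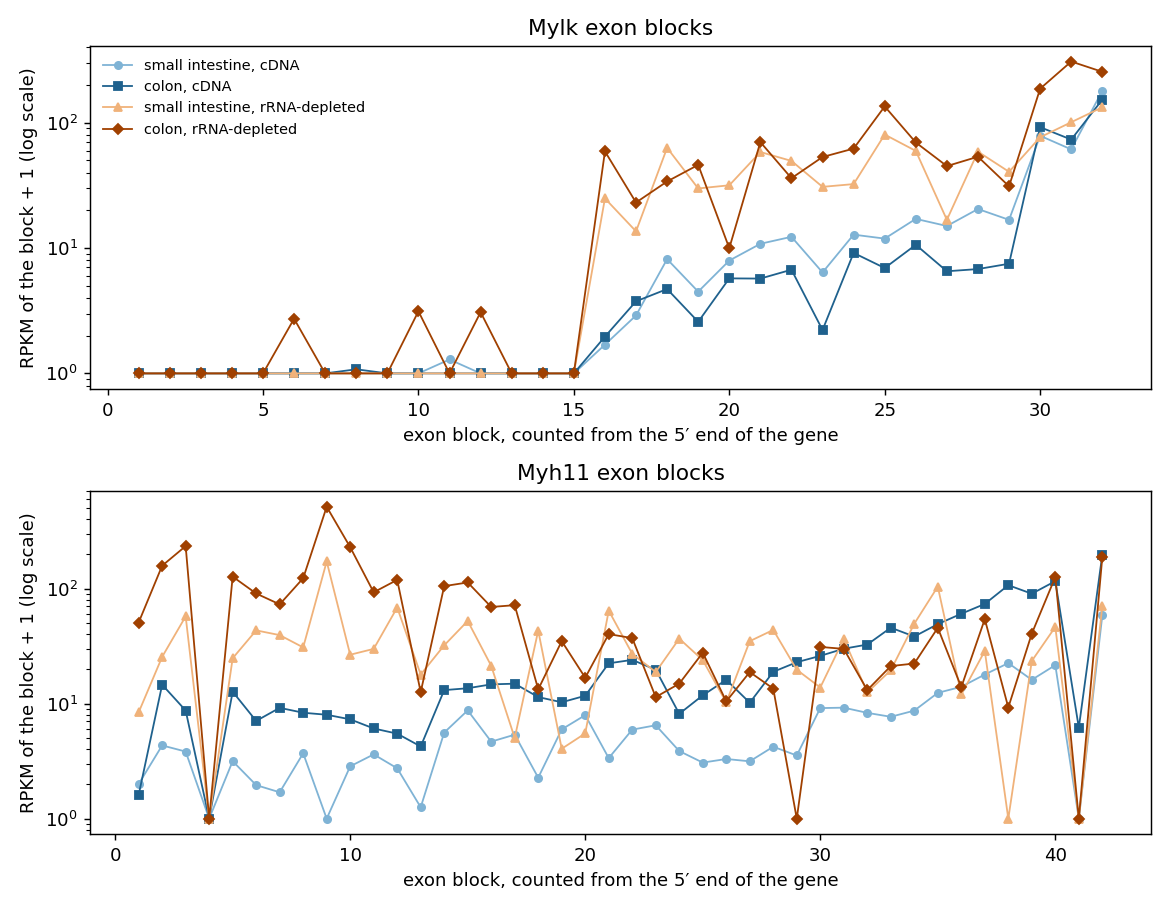
RPKM + 1 on a log axis for each exon block of Mylk (upper panel) and Myh11 (lower panel), in transcript order, with 1 line per library. Mylk blocks 1 to 15 lie at the floor. At block 16 the rRNA-depleted libraries step up to 23.9 and 58.1 RPKM while the cDNA libraries stay at 0.695 and 0.964, and at block 30 the cDNA libraries and the colon rRNA-depleted library rise above all blocks before it. The Myh11 line of the colon rRNA-depleted library lies above that of small intestine in most of the 5′ blocks (not in block 13, at 11.6 against 16.9 RPKM). From block 18 to block 35 it lies above small intestine in some blocks and below in others, at 12.5 against 42.7 RPKM in block 28.

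Des encodes desmin, the main intermediate filament protein of muscle, and lies on the plus strand of chromosome 1 (75356919 to 75364290). It stood at 12 RPKM in small intestine cDNA (580 reads), at 34.6 in colon cDNA (1842 reads), at 37.0 in small intestine rRNA-depleted (162 reads) and at 243 in colon rRNA-depleted (1819 reads). Colon was higher by 2.88 times by cDNA, just under the 3-fold rule once 1 RPKM is added (2.66), and by 6.57 times in the rRNA-depleted libraries. The log2 ratios were 1.53 (1.39 to 1.66) and 2.72 (2.48 to 2.96). Counted over its last 1000 exonic bases, Des did pass the rule in the cDNA libraries. The related filament gene Vim, a mesenchymal marker that is not specific to muscle, had log2 ratios of 0.97 and 2.32.

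Synm encodes synemin, a large filament protein that co-assembles with desmin, and lies on the minus strand of chromosome 7 (74875047 to 74904628). Its levels were low, at 1.92 RPKM in small intestine cDNA (339 reads), 5.25 in colon cDNA (1024 reads), 4.62 in small intestine rRNA-depleted (74 reads) and 7.38 in colon rRNA-depleted (202 reads). The log2 ratio was 1.45 (1.27 to 1.63) by cDNA and 0.68 (0.28 to 1.08) in the rRNA-depleted libraries, where its interval overlapped that of Mylk. Nearly all reads lay in its last block of 6746 bases. The first block, of 924 bases, held 0 reads in both cDNA libraries and 5 and 11 in the rRNA-depleted ones. In the rRNA-depleted libraries the 3′ part of the exon bases was higher in colon (22 against 122 reads, log2 ratio 1.70, 1.04 to 2.42). The 5′ part (26 against 46 reads, 0.05, -0.67 to 0.80) and the middle part (26 against 34 reads, -0.39, -1.17 to 0.41) were not distinguishable between the tissues. Over the last 1000 exonic bases the log2 ratio was 1.45 (0.39 to 2.67) there.

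Smtn and Lmod1 were the least abundant of the actin-binding contractile genes. Smtn encodes smoothelin, which is found in fully differentiated, contracting smooth muscle, and lies on the minus strand of chromosome 11 (3417526 to 3439295). It stood at 1.13 RPKM in small intestine cDNA (86 reads), at 6.86 in colon cDNA (576 reads), at 9.29 in small intestine rRNA-depleted (64 reads) and at 25.1 in colon rRNA-depleted (296 reads). Its log2 ratio of 2.60 (2.27 to 2.95) in the cDNA libraries rested on few small intestine reads and had an interval that overlapped those of Tagln and Cnn1, and it was 1.44 (1.04 to 1.85) in the rRNA-depleted libraries. With 1 RPKM added to the divisor the cDNA ratio of Smtn was 3.22, just past the 3-fold rule. The cDNA reads reached little of the gene beyond its 3′ end. The 5′ part of its exon bases held 3 and 20 reads and the 3′ part 69 and 489. Some of its blocks share bases with another annotated gene, and 96.8% and 97.2% of its exon reads were in the sense direction in the rRNA-depleted libraries.

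Lmod1, leiomodin 1, nucleates actin filaments in smooth muscle and lies on the plus strand of chromosome 1 (137221390 to 137264642). Its levels were 2.30 RPKM in small intestine cDNA (204 reads), 4.74 in colon cDNA (463 reads), 2.87 in small intestine rRNA-depleted (23 reads) and 8.17 in colon rRNA-depleted (112 reads). The log2 ratios were 1.04 (0.80 to 1.29) and 1.51 (0.85 to 2.23). The latter was 3.09 (1.81 to 4.76) without the 10 most used start positions, which held 18 of the 23 small intestine reads. Over the last 1000 exonic bases it was 2.93 (0.19 to 8.34). Counted by reads, Lmod1 was the only contractile gene whose intervals overlapped between the protocols. Lmod2 and Lmod3, the striated muscle leiomodins, held at most 2 reads in any library.

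The order of the 10 genes by RPKM was led by Acta2, Tagln and Actg2 in small intestine by cDNA (101, 86.4 and 80.6), where the intervals of Tagln and Actg2 overlapped. In colon by cDNA it was led by Tagln, Actg2 and Acta2 (446, 341 and 335), where Actg2 and Acta2 overlapped. In the small intestine rRNA-depleted library Acta2, Mylk, Tagln, Actg2, Des and Myh11 lay between 56.0 and 35.7 RPKM, each overlapping the next. In the colon rRNA-depleted library Actg2 and Tagln led (674 and 652, overlapping), followed by Acta2, Cnn1 and Des. Smtn, Lmod1 and Synm held the last 3 places in every library. Since short exons lose reads at their edges, levels were also taken per window of read length with a single placement. This exchanged neighbours in the cDNA libraries, Des and Myh11 in small intestine and Mylk and Myh11 in colon. In small intestine rRNA-depleted it exchanged Des and Myh11 and moved Mylk from the second to the fourth place. The leading gene stayed the same in every library.

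The tissue ratio was larger in the rRNA-depleted libraries for 7 of the 10 genes and smaller for 3. The 5 genes with under 2200 exon bases (Acta2, Actg2, Tagln, Cnn1 and Des) all had the larger ratio there, by 1.26, 1.82, 1.33, 2.11 and 1.19 on the log2 scale. Of the 5 genes with 3000 bases or more, Lmod1 and Mylk were larger there by 0.47 and 1.13. Myh11, Smtn and Synm stood at differences of -0.76, -1.16 and -0.77. For all but Lmod1 the counting intervals of the protocols did not overlap. The shares of all genes for these counts were not computed. Counted by start points, the differences of Des, Mylk and Cnn1 fell to 0.24, 0.49 and 1.07. The intervals of Des then overlapped, at 0.94 to 1.25 by cDNA and 1.03 to 1.67 in the rRNA-depleted libraries. Over the last 1000 exonic bases Synm changed side, at a difference of 0.34, and the other genes kept theirs. The protocols differ in RNA input, fragmentation and depth, and possibly in mice, which cannot be told apart.

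**Figure D4:**
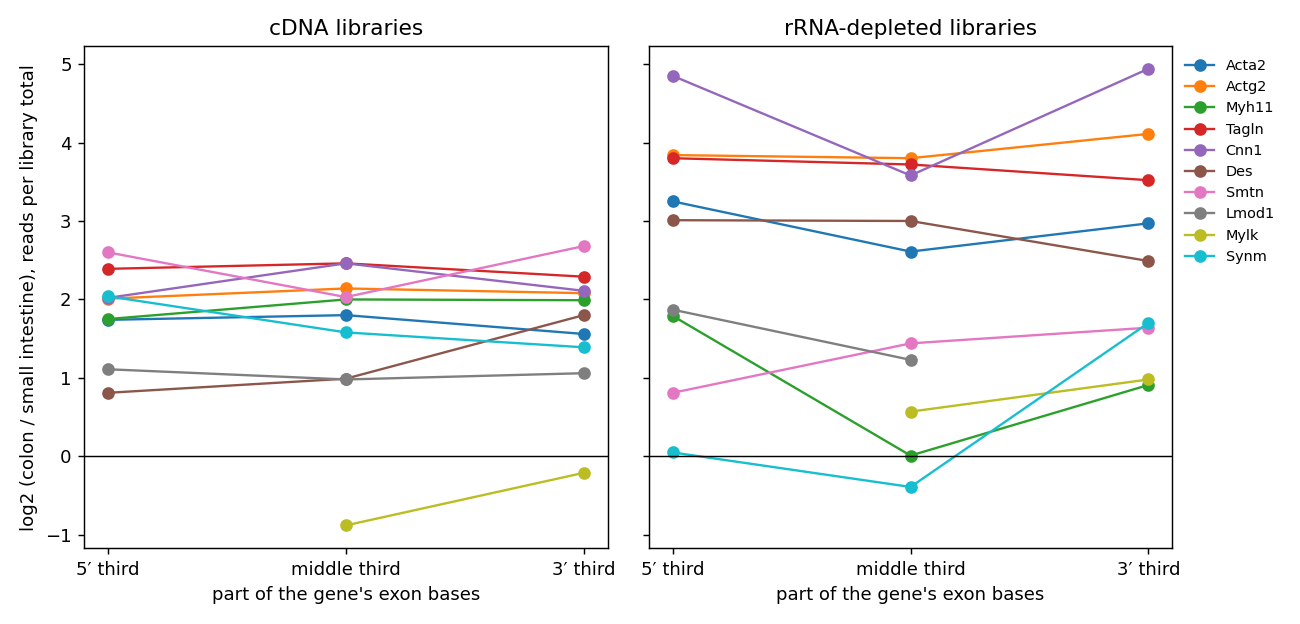
Log2 ratio of colon to small intestine reads for the 5′, middle and 3′ parts of each gene's exon bases, cDNA libraries on the left and rRNA-depleted libraries on the right, for parts with at least 20 reads over both libraries. Myh11 in the rRNA-depleted libraries runs from 1.79 to 0.01 and back to 0.91, whereas in the cDNA libraries its parts lie between 1.75 and 2.0.

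Reads on the contractile genes were spread differently by the protocols. The 10 most used start positions of each gene together held 3.23% and 3.05% of the exon reads in the small intestine and colon cDNA libraries, and 25.2% and 32.8% in the rRNA-depleted libraries. In the rRNA-depleted libraries 35 of the 100 most used positions were the same in small intestine and colon, and in the cDNA libraries 8 of 100. Some positions were tied at few reads. For Smtn in small intestine cDNA the 10 most used held 13 reads, at most 2 each. Which tied positions entered was arbitrary, so these counts do not compare the protocols evenly. The share over all genes was not computed. For Acta2, Smtn and Mylk the most used position was the same in both rRNA-depleted libraries, and for no gene was it the same in both cDNA libraries. The first 30 bases read from these shared positions are shown in the direction of the transcript, with the first base of the read in capitals, at chr19:34327037-34327066 (minus strand), chr11:3422843-3422872 (minus strand) and chr16:34922338-34922367 (plus strand) of mm9:
Acta2, block 2: Aaccctgagacgctgctccagctatgtgtg
Smtn, block 18: Aaagagttaatgaaggcacagagtctgccc
Mylk, block 16: Cctgtgggcaacaccaagcctgccgagacc
The Acta2 position is the first base of its second block with 20 small intestine and 220 colon reads, against 1 and 10 in the cDNA libraries. Placements up to 3 bases outside a block were set to its edge base. The Acta2 counts can therefore pool neighbouring positions, and the base in capitals may not be the first base of every read. The Smtn position held 5 and 14, and the Mylk position 27 and 108, and neither held a read in the cDNA libraries. Leaving out the 10 most used positions of every gene changed the log2 ratio of the summed reads from 2.20 to 2.05 in the rRNA-depleted libraries and let Lmod1 pass the 3-fold rule there.

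The strand of the reads followed the protocols. Over all contractile genes 99.4% (99.0 to 99.7) and 99.9% (99.8 to 99.9) of exon reads were in the sense direction in the rRNA-depleted small intestine and colon libraries. In the cDNA libraries, which carry no strand information, the shares were 51.0% and 48.3%. Antisense reads on these genes in the rRNA-depleted libraries were 12 of 2092 and 17 of 16269, among them 3 of 55 on Tagln in small intestine.

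Other genes of smooth muscle were compared by lists. Among 20 thin filament and partner proteins, 6 were at least 3-fold higher in colon by cDNA and 8 in the rRNA-depleted libraries, against 3.21% and 6.60% of all genes, with median log2 ratios of 1.03 and 1.51 against 0.40 over all genes. Of these, 5 passed in both protocols: Myl9 (the regulatory light chain), Tpm2 (beta tropomyosin), Pdlim3 (an actinin-binding LIM protein), Fhl1 (a LIM protein of the cytoskeleton) and Hspb1 (a small heat shock protein that binds actin). Flna, the actin cross-linker filamin A, passed by cDNA alone (log2 ratios 1.81 and 1.51), and Pdlim7, Synpo2 and Pgm5 passed in the rRNA-depleted libraries alone (2.91, 1.76 and 2.29 there). By cDNA Pdlim7 stood at 1.76 and Synpo2 at 0.35. Pgm5 held 4 and 6 reads by cDNA, too few to give a direction (-1.63 to 2.71). Hspb1 held 60 and 862 reads in small intestine and colon by cDNA and 5 and 162 in the rRNA-depleted libraries, and Fhl1 held 1811 and 11443, then 76 and 1849. Their log2 ratios were 3.70 and 4.24 for Hspb1 and 2.52 and 3.83 for Fhl1. Ldb3, a Z-disc protein of striated muscle, was the only gene of the list higher in small intestine by the 3-fold rule, in the rRNA-depleted libraries, at 210 and 73 reads and a log2 ratio of -2.30, and it stood at -1.49 by cDNA.

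Genes that set the calcium sensitivity of contraction were taken as another list. Of 12 genes of myosin phosphatase and cyclic GMP signalling, 0 passed the 3-fold rule in the cDNA libraries, where 3.21% of all genes were higher in colon and 2.73% in small intestine. Their median log2 ratio there was -0.05. Ppp1r12b, Prkg1 and Gucy1b3 were under 3 RPKM in both cDNA libraries and could not pass there. In the rRNA-depleted libraries 3 passed in colon (Ppp1r14a, Mrvi1 and Gucy1b3) and 1 in small intestine (Ppp1r12a, the phosphatase targeting subunit, at -2.20), against 6.60% and 3.71% of all genes, with a median of 0.60. By cDNA Ppp1r12a had the opposite direction, at 0.20 (0.09 to 0.32). So did Gucy1b3, at -0.39 (-0.69 to -0.10) by cDNA and 3.15 in the rRNA-depleted libraries, there on 6 and 91 reads. Mrvi1 stood at 0.36 and 2.22. Ppp1r14a, the phosphatase inhibitor CPI-17, held 6 and 49 reads by cDNA and 2 and 28 in the rRNA-depleted libraries, at log2 ratios of 2.89 and 3.03. Prkg1, cyclic GMP-dependent kinase, stood at 1.44 and 4.13 on 10 and 30, then 1 and 30 reads. Pde5a, which degrades cyclic GMP, stood at -0.60 and 0.71, and Rock1, a kinase that inhibits the phosphatase, at -1.19 and -0.74.

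Among 12 channels and receptors, 0 passed the rule by cDNA and 4 (Kcnma1, Tacr2, Pln and Ptger3) in the rRNA-depleted libraries, against 3.21% and 6.60% of all genes, at median log2 ratios of 0.88 and 1.07 against 0.40. Cacna1c, Kcnma1, Chrm2, Chrm3, Ednra and Ptger3 were under 3 RPKM in both cDNA libraries and could not pass there. Tacr2, the neurokinin 2 receptor of gut muscle, held 26 and 252 reads by cDNA and 2 and 54 in the rRNA-depleted libraries, with log2 ratios of 3.14 and 3.98. Cacna1c, the L-type calcium channel pore, held 1 and 20 reads by cDNA and 14 and 72 in the rRNA-depleted libraries. Atp2a2, the calcium pump of the sarcoplasmic reticulum, stood at -0.11 and -0.30, and Ednrb, the endothelin B receptor, at -0.73 and 0.05.

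The medians of the transcription factor list lay near the median of all genes. Of 12 regulators, 1 passed by cDNA (Mkl1, a myocardin-related factor, log2 ratios 2.49 and 0.43) and 1 in the rRNA-depleted libraries (Foxf1a, a gut mesenchyme factor, on 7 and 47 reads, a log2 ratio of 1.97 and a ratio of 3 with 1 RPKM added), against 3.21% and 6.60% of all genes. By cDNA Foxf1a held 4 and 3 reads, too few to give a direction (-3.33 to 2.01). The medians were 0.22 and 0.35. Srf, serum response factor, held 91 and 275 reads by cDNA and 90 and 141 in the rRNA-depleted libraries, at log2 ratios of 1.45 and -0.13. Myocd, myocardin, held 52 and 67, then 9 and 38 reads, at 0.22 and 1.3. Mef2c stood at -0.81 and 0.27, and Gata6, which is also expressed in gut epithelium, at -1.23 and -1.12.

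The dystrophin and integrin complexes link the contractile filaments to the matrix. Of 11 of their genes, 0 passed by cDNA and 2 (Itga5 and Itga7) in the rRNA-depleted libraries, against 3.21% and 6.60% of all genes. Dmd, Sgcb, Sgcd, Sspn, Dtna, Itga7 and Itga8 were under 3 RPKM in both cDNA libraries and could not pass there. The median log2 ratio was 0.24 by cDNA and 1.81 in the rRNA-depleted libraries, against 0.40 over all genes in both. Itga7, a laminin-binding integrin of muscle, held 2 and 51 reads by cDNA and 7 and 92 in the rRNA-depleted libraries, and Itga5, a fibronectin-binding integrin, held 107 and 358, then 21 and 296. Utrn, utrophin, stood at -0.49 and -0.79, and Itga8 at -1.04 and 0.76.

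**Figure D5:**
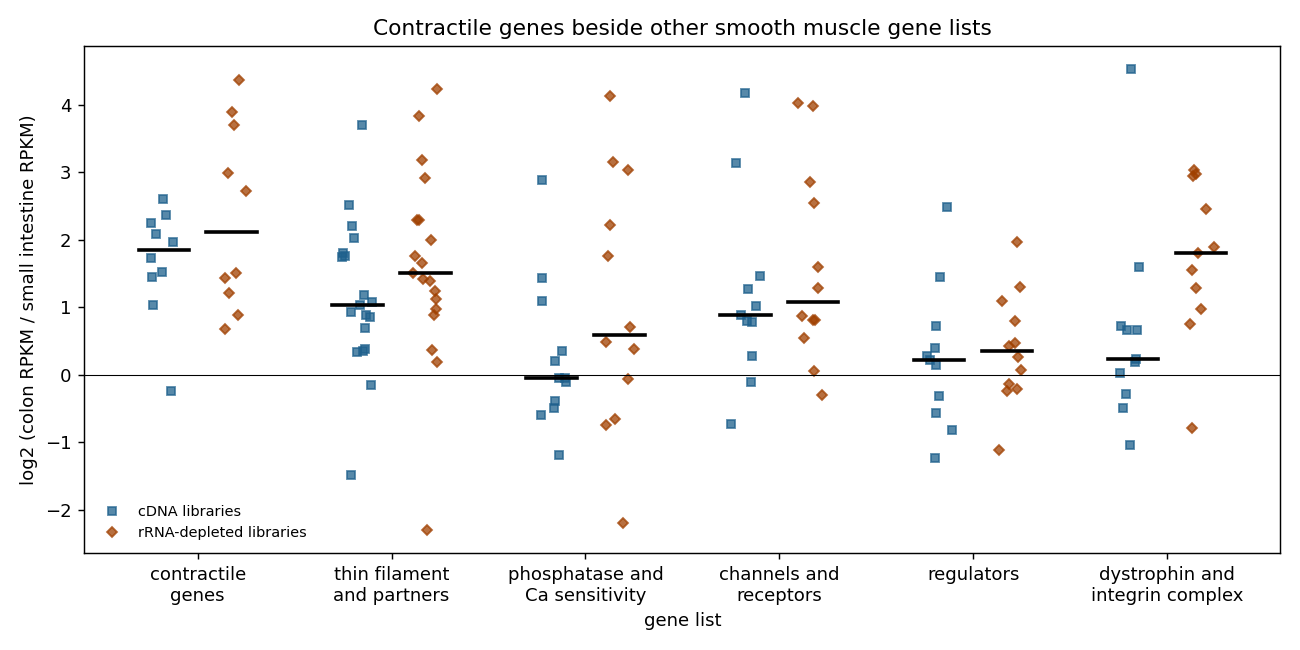
Log2 ratio of colon to small intestine RPKM for the genes with at least 20 reads in the contractile list and 5 other smooth muscle lists, squares for cDNA and diamonds for rRNA-depleted libraries, with a black bar at each median. Among the lists drawn, the contractile genes have the highest median in both protocols, 1.85 and 2.11, and the regulators lie at 0.22 and 0.35. Of the cell type markers, which are not drawn, those of adipocytes had a higher median by cDNA (2.25). In the rRNA-depleted libraries those of interstitial cells of Cajal (2.34) and of enteric neurons and glia (2.22) did, and the other marker lists lay lower.

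Markers of other cell types in the samples were summed in the same way. Epithelial markers (9 of 9 with reads) summed to 10149 RPKM in small intestine and 5603 in colon by cDNA, and to 4809 and 6820 in the rRNA-depleted libraries. Krt20, a keratin of differentiated epithelium, held 7588 and 2523 RPKM of the cDNA sums, and without it they were 2561 and 3080, so the direction turned. Of the 9 markers 5 had a cDNA ratio above 1, at a median log2 ratio of 0.19. In the rRNA-depleted libraries 5 of 9 had a ratio below 1, at a median of -0.13. Both medians lay below the 0.40 over all genes. Among all genes with at least 20 reads, 9422 of 14206 by cDNA and 7746 of 11958 in the rRNA-depleted libraries had a ratio above 1. The rise of the rRNA-depleted sum lay mostly in Krt8 (1141 and 2510 RPKM) and Krt19 (847 and 2766). Markers of interstitial cells of Cajal, the pacemaker cells that lie within the muscle layer, were higher in colon. The summed RPKM of Kit, Ano1 and Etv1 was 7.80 and 29.8 by cDNA and 10.3 and 99.5 in the rRNA-depleted libraries, and Ano1, their calcium-activated chloride channel, passed the 3-fold rule in both. Enteric neuron and glia markers (9 of 9 with reads) summed to 9.52 and 22.2 RPKM, then 7.06 and 32.1. Adipocyte markers (4 of 4) summed to 73.9 and 359 RPKM, then 33.1 and 184, and Cfd, the adipocyte product adipsin, passed in both protocols. Fibroblast markers (6 of 6) summed to 237 and 267 RPKM, then 62.3 and 229, endothelial markers (6 of 6) to 17.9 and 18.8, then 15.3 and 27.5, and pericyte markers (4 of 4) to 120 and 102, then 46.0 and 95.2. The rRNA-depleted fibroblast sums rose mostly by Dcn (22.3 and 144 RPKM), which passed the 3-fold rule there, as did Lum (3.79 and 25.6). The median log2 ratio of the fibroblast markers was 0.76 in these libraries. Rgs5 held 117 and 98.4 RPKM of the pericyte sums by cDNA, and the other markers of that list had cDNA log2 ratios of 0.28 (Pdgfrb), 0.73 (Cspg4) and 1.15 (Notch3). The part of these cell types in the ratios of the contractile genes was not tested.

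Striated muscle was checked as another source of Des and of muscle actins. Of its 12 markers 9 had reads in some library, and their summed RPKM was 43.7 and 56.8 by cDNA and 29.7 and 73.3 in the rRNA-depleted libraries. Actc1 was the main part of the latter sums, at 18.0 and 55.8 RPKM. The defining heavy chains Myh4, Myh6 and Myh7 were at 0 in all 4 libraries, and Myh1, Myh2 and Myl2 held at most 1 read in any. A count of 0 allows up to 3 reads. Ckm, muscle creatine kinase, held 185 and 414 reads by cDNA and 9 and 77 in the rRNA-depleted libraries, where it passed the 3-fold rule. Mylpf, the fast skeletal regulatory light chain, held 135 and 131 reads by cDNA and 6 and 0 in the rRNA-depleted libraries. Tnni2, fast skeletal troponin I, held 27 and 46, then 1 and 0, and Tnnt3, fast skeletal troponin T, held 3 and 14, then 0 and 0.

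The genes whose profile over the 4 libraries was most like the median profile of the contractile genes included no other gene of the smooth muscle lists. Likeness was the root mean square distance between centred log2(RPKM + 1) values over 4 libraries, taken for the 8238 genes with at least 20 reads in each. The nearest were Slc12a8 (0.114), Slc35c1 (0.121), Cldn23 (0.126), Aldh1a1 (0.131), 2010106G01Rik (0.133), Rap2a (0.134), Rcan3 (0.140), Mtch1 (0.141), Car8 (0.143) and Abcc1 (0.143). The contractile genes themselves ranked between 137 (Myh11) and 3690 (Tagln), so they did not share one profile. Over 4 libraries such a list describes levels only.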

How the data were processed

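The authors deposited match files in which each record holds the position, strand and color mismatches of 1 uniquely placed SOLiD read, with 35 colors and at most 3 mismatches against RefSeq exons and exon-exon junctions of mm9. The genes and lists were chosen with earlier results of these data known. Reads were counted on exon blocks (3 bases of tolerance at edges) and junctions, joined into 20787 condensed genes, of which 20616 took a GENCODE M1 name. A gene was tested when above 0.01 RPKM with at least 2 start points in either library of a protocol.

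Intervals other than those of the limma fit are exact Poisson and conditional binomial (Clopper-Pearson) ones. Reads without molecular identifiers are not independent molecules, so they cover counting error only. From each smooth muscle list the genes with the 2 largest and 2 smallest cDNA ratios were named, among genes with at least 20 reads, besides those past the 3-fold rule. A gene that this rule picked among the thin filament and partner proteins is not reported here. Myocd and the paralogs were named too. Tissue was tested over all 4 libraries by limma 3.58.1 on log2(RPKM + 1) with protocol as a second term, moderated with a mean-variance trend, with Benjamini-Hochberg adjustment over 14839 genes. Alternatives were at most 1 mismatch, start points, median-of-ratios and upper quartile scaling, a penalty of 0.1 RPKM, the last 1000 exonic bases, no junctions, no overlapping blocks, sense reads, a minimum of 20 reads and thinning. The Tagln exon, the most used starts, unique windows the sum without Mylk and the limma fit with its alternatives were added after the data had been seen. Scripts in Python 3 (scipy, numba, pysam) were tested on simulated data.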

Additional observations from a re-analysis of the deposited data

Results flagged for a closer look

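Mylk stood out because its colon to small intestine log2 ratio had opposite signs in the protocols, -0.24 in the cDNA libraries and 0.89 in the rRNA-depleted libraries. The difference was not tested, since each value rests on 1 library per tissue. Reads on the Tagln strand of its last exon stood out as signal outside the main counts, since the block that holds this exon was counted as Pcsk7. They numbered 83 in the small intestine and 1259 in the colon rRNA-depleted library, against 5 and 60 on the opposite strand of the exon and 0 and 2 on the Tagln strand in the rest of the block.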

How the results depend on the processing

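The labels carry no replicate numbers, so the tissues were paired by protocol alone, in the limma fit. The 7 genes it called were 6 to 7 under its alternatives (a pseudocount of 0.1 RPKM, at least 20 reads in each protocol, both scalings, start points and no mean-variance trend). Over all genes it called 1139 higher in colon, 749 with median-of-ratios scaling, 1387 by start points and 1486 with a pseudocount of 0.1 RPKM. Of 111 alternative log2 ratios per protocol, 21 rest on the same reads and scale as the reported value and could not differ. The other 90 by cDNA and 90 in the rRNA-depleted libraries kept their direction, and 35 and 22 lay outside the counting interval of the reported value. The count of genes at least 3-fold higher in colon was 6 by cDNA and 5 in the rRNA-depleted libraries. Start points lowered these counts to 1 and 3, and the other alternatives gave 4 to 7 and 5 to 6. The share of all genes past the 3-fold rule was not computed under these alternatives. In the cDNA libraries Acta2 no longer passed with median-of-ratios scaling, and neither Acta2 nor Smtn with upper quartile scaling. Median-of-ratios and upper quartile scaling moved every log2 ratio by -0.14 and -0.18 by cDNA and by -0.19 and -0.24 in the rRNA-depleted libraries. These shifts are the same for every gene and smaller than every reported ratio above 0. The values under both scalings therefore could not change direction.

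The log2 ratio of summed reads, 1.29 by cDNA, was 1.20 with at most 1 mismatch, 0.69 by start points, 1.15 with median-of-ratios scaling, 1.11 with upper quartile scaling, 1.20 over the last 1000 exonic bases, 1.21 with sense reads only, 1.36 with the last exon of Tagln and 1.94 without Mylk. In the rRNA-depleted libraries it was 2.20, against 2.12 with at most 1 mismatch, 0.95 by start points, 2.01 with median-of-ratios scaling, 1.95 with upper quartile scaling, 2.52 over the last 1000 bases, 2.05 without the most used starts and 2.69 without Mylk. The difference between protocols turned for Synm over the last 1000 bases, from -0.77 to 0.34. By start points it fell from 1.19 to 0.24 for Des, from 2.11 to 1.07 for Cnn1 and from 1.13 to 0.49 for Mylk. The cause of these changes was not tested. The cDNA libraries do not keep strand, so there the values for sense reads and for the last exon of Tagln rest on an arbitrary part of the reads and tell nothing about strand. Depth limits the small intestine rRNA-depleted library, with 23 reads on Lmod1 and 55 on Tagln, and the lack of replicates within a protocol limits every ratio.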
